A study of Mus musculus with 2 samples.

Results

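The translation initiation and elongation factors are the proteins that bring ribosomes to mRNAs and drive them along. Their mRNAs were followed in 2 bulk RNA-seq libraries of mouse pituitary cells. Members were all protein-coding genes whose symbol begins with Eif or Eef and a digit, leaving out the Y-linked Eif2s3y and the eIF2 kinases, and 62 of the 47069 genes in the table met that rule. At a mean of at least 1 CPM (counts of the gene per 1000000 counts of its library) 60 of the 62 were kept. The remaining pair, Eif4e1b, a cap-binding homolog best known from oocytes, and Eif4ebp3, an inhibitor of eIF4E, lay below that level in both libraries.

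In initiation, eIF2 carries the initiator tRNA to the small ribosomal subunit, eIF3 holds the small subunit ready, and the eIF4 proteins bind the mRNA cap and unwind the leader so that the start codon can be found. In elongation, eEF1A delivers aminoacyl-tRNAs, its exchange factor eEF1B recharges it with GTP, and eEF2 moves the ribosome by a codon. The pituitary is a gland of secretory endocrine cells that make large amounts of peptide hormone. Many mRNAs of the translation machinery begin with a 5′ terminal oligopyrimidine (TOP) tract, through which their translation follows the activity of the kinase complex mTORC1.

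Each library was made from poly(A) RNA of acutely dissociated whole pituitaries of randomly cycling C57BL/6 female mice, 10 to 12 weeks old. Glands were digested with collagenase and pancreatine. The study's methods give a sample as the cells of 5 pituitaries, about 500000 to 700000 in number, in their account of plated cells. They state no separate number for the acutely dissociated samples. The cells of 1 sample were stored in RNA-Best, a reagent that stabilizes RNA and keeps single cells whole, and those of the other in RNAlater, the established reagent used as reference. The question was whether cells kept in RNA-Best give the same transcript profile as the reference reagent.

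Each stabilizer had 1 library, so differences lack any replicate check and none was tested. The stabilizer, the animals and the library preparation cannot be told apart. Gene counts totalled 53915047 for RNA-Best and 44917492 for RNAlater. All 7 hormone genes used as a check of the tissue were present in both, with Prl (prolactin) at 235654 CPM with RNA-Best against 172302 CPM with RNAlater. Prl and Gh (growth hormone) together took 29.7% of all counts with RNA-Best and 23.2% with RNAlater. The median gene had a log2 ratio of RNA-Best to RNAlater of -0.18 (16504 genes kept by the same minimum), and ratios are also given relative to that median. Intervals are 95% intervals, exact, and cover counting error only. Those of ratios were computed without the pseudocount of 0.5 CPM that the ratios themselves carry, and that pseudocount slightly understates the ratio of weakly expressed genes.

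Translation factor mRNAs were, as a group, higher in RNA-Best than the median gene. By library total, 41 of the 60 members had a log2 ratio above 0 and 19 were lower, beside 33% of all genes higher and 67% lower. The median log2 ratio of the members was 0.10, which lay 0.28 above the median of all genes, and 51 of 60 members were above that median. Together the 62 genes took 1.29% of all counts with RNA-Best (interval 1.285% to 1.291%) and 1.11% with RNAlater (1.107% to 1.113%). Most single differences were small. At least 1.5-fold higher were 4 members (3.22% of all genes) and at least 1.5-fold lower were 4 (18.8% of all genes). No member was 2-fold higher (0.273% of all genes) and 1 was 2-fold lower (4.99% of all genes). The counting interval of the ratio lay wholly above 0 for 33 members, wholly below 0 for 12 and held 0 for 15. Direction depended on the scaling for 10 members, all of them lower by library total, of which Eif1, Eif1a, Eif1ad, Eif2b5, Eif3b, Eif5 and Eif5a2 turned higher under all 3 other scalings. With TMM factors 50 of 60 members were higher, beside 48.6% of all genes, with DESeq2 size factors 51, beside 49.6%, and with totals that left out Prl and Gh 48, beside 44.5%.

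**Figure D1:**
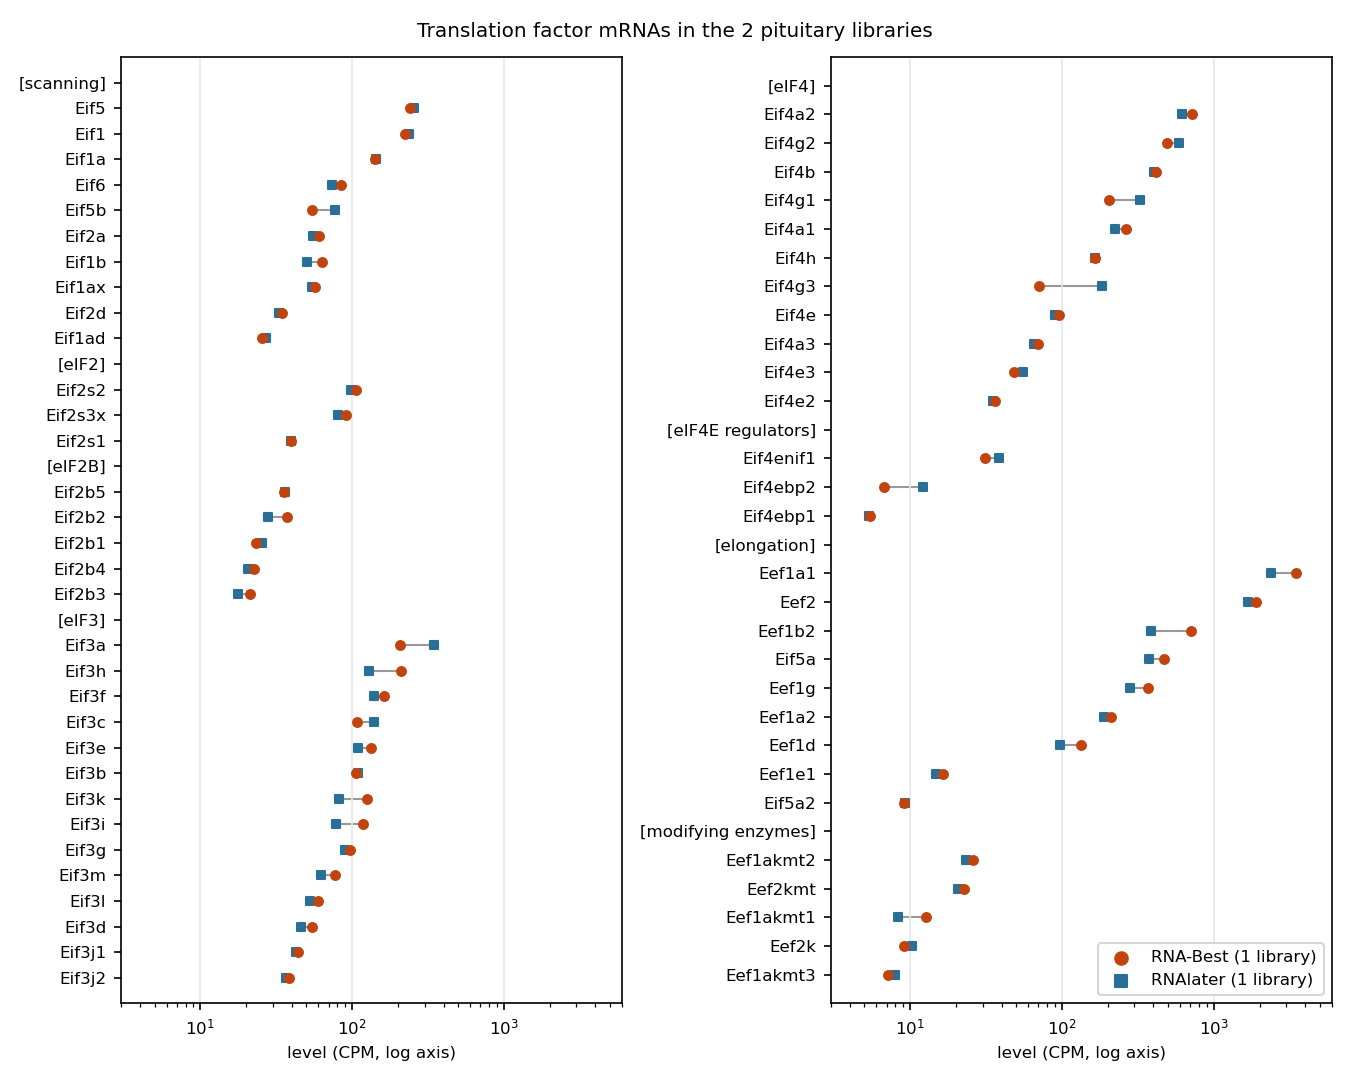
Level of each of the 60 kept translation factor mRNAs in RNA-Best (circles) and RNAlater (squares), in CPM on a log axis, sorted by mean level within role groups (names in brackets), with 1 library for each reagent. Eef1a1 and Eef2 stand furthest right in both libraries, and the widest gap is that of Eif4g3, at 70.4 CPM with RNA-Best against 184 CPM with RNAlater.

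Markers of cells other than endocrine cells also differed between the libraries, beside 67% of all genes lower in RNA-Best. Of 10 endothelial markers 9 were lower (7 under each of the other scalings), with a summed level of 430 CPM against 813 CPM in RNAlater. All 10 pericyte and fibroblast markers were lower, at 608 against 815 CPM, all 8 posterior lobe markers at 164 against 277 CPM, and all 8 stem and folliculostellate markers at 370 against 617 CPM. Col1a2 alone made up 376 of the 608 CPM and 425 of the 815 CPM, and its log2 ratio of -0.18 was that of the median gene. Under the other scalings up to 2 of the pericyte and fibroblast markers and 1 of the stem and folliculostellate markers were higher. Macrophage markers were split, 5 higher and 5 lower, at 215 against 200 CPM. None of these markers was at 0 in either library, and their part in the translation factor values was not tested. Median log2 ratios were -0.87 (endothelial), -0.75 (pericyte and fibroblast), -0.66 (posterior lobe), -0.51 (stem and folliculostellate) and 0.02 (macrophage). With a trend of ratio on transcript length taken off they were -0.66, -0.43, -0.34, -0.51 and 0.02. The 5 higher macrophage markers had transcripts of 0.597 to 1.203 kb and the 5 lower ones of 1.23 to 5.37 kb. The part of length in these differences was not tested. In bulk samples fewer cells of a type and less RNA per cell cannot be told apart.

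The elongation factors were the most abundant group and had the highest median ratio by library total, although with the trend on length taken off that of eIF2 was 0.41, as was theirs. Their 9 genes held 56.6% (interval 56.5% to 56.7%) of the translation factor counts with RNA-Best, beside 48.7% (48.5% to 48.8%) with RNAlater. Of these, 8 were higher in RNA-Best, and the median log2 ratio was 0.33. Eef1a1, the GTPase that brings aminoacyl-tRNA to the ribosome, stood at 3474 CPM with RNA-Best against 2381 CPM with RNAlater, a log2 ratio of 0.55 (interval 0.53 to 0.56). It alone made up 27.0% of the translation factor counts in RNA-Best and 21.5% in RNAlater. Eef2, the translocation GTPase, was nearer to parity, at 1900 CPM with RNA-Best against 1676 CPM with RNAlater (log2 ratio 0.18, interval 0.17 to 0.20).

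Of the subunits of eEF1B, the complex that reloads eEF1A with GTP, Eef1b2 had the highest ratio. Eef1b2, the exchange factor subunit on chromosome 1 (GRCm38, 63176825 to 63180486), was at 703 CPM with RNA-Best against 385 CPM with RNAlater. This was the highest ratio of all 60 members, 0.87 on the log2 scale (interval 0.84 to 0.89) or 1.82-fold. Eef1d, the other exchange subunit, was at 134 and 96.5 CPM (log2 ratio 0.47), and Eef1g, the scaffold of the complex, at 371 and 279 CPM (log2 ratio 0.41). All 3 subunits were thus higher in RNA-Best, by unequal factors, and none changed direction with the scaling. Eef1e1, a partner of the multi-synthetase complex, was at 16.5 CPM with RNA-Best against 14.7 CPM with RNAlater (log2 ratio 0.16).

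Eif5a, the factor that carries the amino acid hypusine and helps peptide bonds form, was at 468 CPM with RNA-Best against 373 CPM with RNAlater, a log2 ratio of 0.33 (interval 0.30 to 0.35). Its paralog Eif5a2 was the only elongation gene not higher, at 9.04 and 9.27 CPM, and its interval of -0.22 to 0.16 held 0. The enzymes that modify elongation factors were weakly expressed beside the members as a whole, with a median level of 10.5 CPM against 74.5 CPM. Eef1akmt1, a lysine methyltransferase of eEF1A, was the highest of these 5 by ratio, at 12.7 CPM with RNA-Best against 8.35 CPM with RNAlater (log2 ratio 0.58, interval 0.42 to 0.79). Eef2k, the kinase that inhibits eEF2, was the lowest, at 9.05 and 10.3 CPM (log2 ratio -0.17, interval -0.37 to 0.01). Eef1akmt2, Eef2kmt and Eef1akmt3, at 0.16, 0.14 and -0.14, lay between them, and the median of the group was 0.14.

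The eIF3 complex had subunits at both ends of the range. Of its 14 genes 11 were higher in RNA-Best and 3 lower, with a median log2 ratio of 0.20 and a spread from -0.74 to 0.68. Eif3h, a subunit of the octamer that frames the complex, was at 208 CPM with RNA-Best against 130 CPM with RNAlater (log2 ratio 0.68, interval 0.64 to 0.73). Eif3k was at 126 and 81.3 CPM (log2 ratio 0.63), and Eif3i, a core-associated subunit, at 119 and 77.8 CPM (log2 ratio 0.61). These 3 were each at least 1.5-fold higher in RNA-Best. Eif3a, the largest core subunit, went the other way, at 206 CPM with RNA-Best against 346 CPM with RNAlater, a log2 ratio of -0.74 (interval -0.78 to -0.71) and 1.67-fold lower. Eif3c, another core subunit, was at 108 and 139 CPM (log2 ratio -0.35, interval -0.41 to -0.30), and Eif3b at 106 and 109 CPM, with an interval that held 0. The other 8 genes had log2 ratios from 0.04 for Eif3j1 to 0.32 for Eif3m.

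Since the subunits of eIF3 work as 1 complex, their levels were also set side by side per kilobase of the principal annotated transcript. In RNA-Best they ran from 8.13 CPM per kb for Eif3j1 to 163 CPM per kb for Eif3k, a 19.99-fold span, and in RNAlater from 7.92 to 105 CPM per kb for the same genes, a 13.3-fold span. The order of the 14 subunits had a Spearman correlation of 0.969 between the libraries, and of 0.903 per kb of the longest transcript, over subunits that share each library. Between the libraries Eif3a and Eif3i each moved by 2 places in the order by principal transcripts and by 3 places in that by longest transcripts, where Eif3c moved by 4. Per kb of the longest transcript Eif3h and Eif3g, rather than Eif3k and Eif3h, were the highest pair. By principal transcript, Eif3a had 40.3 CPM per kb in RNA-Best, below Eif3f and Eif3m at 64.5 and 60.3, and 67.5 CPM per kb in RNAlater, above the same genes at 55.0 and 48.3. Eif3j1 and Eif3j2, the loosely bound subunit and its copy, cannot be separated with confidence, because 91.7% of the 51-base stretches of Eif3j2 also occur in other genes.

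**Figure D2:**
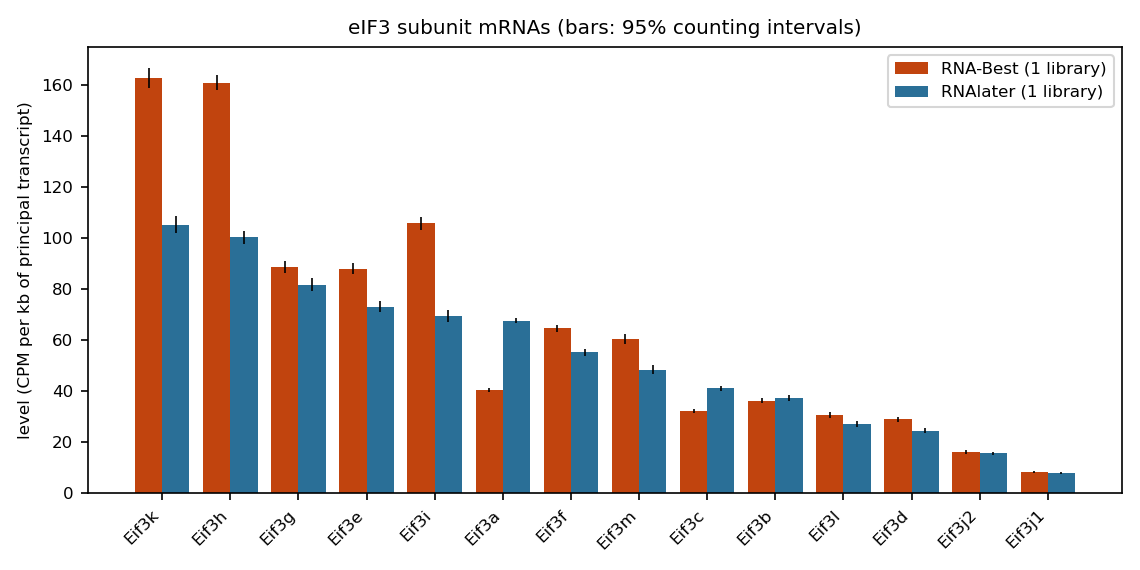
Levels of the 14 eIF3 subunit mRNAs in CPM per kb of principal transcript, sorted by the RNAlater level, with 1 library for each reagent and 95% counting intervals as error bars. On this length Eif3k and Eif3h are the tallest pair in both libraries, and Eif3a (40.3 against 67.5), Eif3c and Eif3b are the 3 subunits with the lower bar in RNA-Best.

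Of the ternary complex factors, the eIF2 subunits differed little between the libraries by library total. All 3 were higher in RNA-Best, with a median log2 ratio of 0.11, or 0.41 with the trend on length taken off. Eif2s3x, the X-linked gamma subunit, was the highest of them at 90.6 CPM with RNA-Best against 81.1 CPM with RNAlater (log2 ratio 0.16, interval 0.10 to 0.22), and Eif2s1, the alpha subunit that stress kinases phosphorylate, was at 39.5 and 39.3 CPM, with an interval of -0.09 to 0.10. Eif2s2, the beta subunit, was at 106 and 98.0 CPM (log2 ratio 0.11). Of the 5 subunits of eIF2B, the exchange factor of eIF2, 3 were higher and 2 lower, with a median of 0.13. The beta subunit Eif2b2 was at 37.3 CPM with RNA-Best against 27.7 CPM with RNAlater (log2 ratio 0.42, interval 0.33 to 0.53). The alpha subunit Eif2b1 was at 23.4 and 25.6 CPM (log2 ratio -0.13, interval -0.24 to -0.01), a direction that reversed under 2 of the 3 other scalings. Eif2b3, Eif2b4 and Eif2b5, the gamma, delta and catalytic epsilon subunits, had log2 ratios of 0.25, 0.13 and -0.03. The counts of all 5 eIF2B genes were whole numbers, with no read divided between genes.

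Of the 10 scanning and subunit joining factors 5 were higher by library total, with a median log2 ratio of 0.02. With each of the 3 other scalings 9 of 10 were higher, with medians of 0.19 (TMM), 0.20 (DESeq2) and 0.15 (totals without Prl and Gh). Eif1b was the highest of the 10, at 63.0 CPM with RNA-Best against 50.2 CPM with RNAlater (log2 ratio 0.32, interval 0.25 to 0.40). Its paralog Eif1, which guards start codon choice, was at 222 and 235 CPM (log2 ratio -0.09, interval -0.12 to -0.05), and this direction reversed under all 3 other scalings. Eif5b, the GTPase that joins the ribosomal subunits, was the lowest, at 54.7 CPM with RNA-Best against 77.5 CPM with RNAlater (log2 ratio -0.50, interval -0.58 to -0.43). It stayed lower under each of the other scalings but not once the trend with length was taken off (0.18). The other 7 genes of the group had log2 ratios from -0.10 for Eif5, the GTPase-activating protein of eIF2, to 0.21 for Eif6, which keeps large subunits from joining early.

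The eIF4 group held the lowest ratio of all members, in 1 of its scaffolds. Eif4g3, a scaffold that bridges the cap-binding protein and the small subunit (chromosome 4 of GRCm38, 137993022 to 138208508), was at 70.4 CPM with RNA-Best against 184 CPM with RNAlater. Its log2 ratio of -1.38 (interval -1.44 to -1.33) was a 2.60-fold lower level with RNA-Best. Eif4g1, the major scaffold, was at 203 and 328 CPM (log2 ratio -0.69, interval -0.73 to -0.66). Eif4g2, known as DAP5, which lacks the cap-binding region and is 1 of the 5 most abundant members, was at 495 and 587 CPM (log2 ratio -0.25, interval -0.27 to -0.22). All 3 scaffolds were thus lower in RNA-Best, and they stayed so under each scaling. With the trend on length taken off, Eif4g3 and Eif4g1 were at -0.67 and -0.18, but Eif4g2 was at 0.45. That value of Eif4g2 rests on its longest annotated transcript, of 7.995 kb. Its principal annotated transcript has 0.742 kb, and near that length the trend was at 0.23, above the ratio of Eif4g2. The side of the trend on which Eif4g2 lies thus depends on the transcript used.

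Eif4a1 and Eif4a2, the paralogous helicases that unwind leaders, were at 263 and 713 CPM in RNA-Best and at 225 and 621 CPM in RNAlater, with log2 ratios of 0.22 and 0.20. Eif4e, the cap-binding protein, was at 95.5 and 90.0 CPM (log2 ratio 0.09, interval 0.03 to 0.15). The cofactors Eif4b and Eif4h had log2 ratios of 0.04 and 0.01. Those of Eif4a3, the helicase of the exon junction complex, and of the cap-binding homologs Eif4e2 and Eif4e3 were 0.10, 0.03 and -0.20. Over the 11 kept genes of the group 7 were higher and the median was 0.03. Among the eIF4E regulators, Eif4ebp2, an inhibitor whose hold on eIF4E mTORC1 relieves, was at 6.68 CPM with RNA-Best against 12.2 CPM with RNAlater (log2 ratio -0.83, interval -1.07 to -0.68), while Eif4ebp1 was at 5.43 and 5.32 CPM, with an interval of -0.23 to 0.28. Eif4enif1, the transport and repression partner of eIF4E, was at 31.0 and 38.5 CPM (log2 ratio -0.31). The median of these 3 genes, -0.31, was the only one of the 8 role groups below 0, and it was below 0 under each scaling, though it was -0.04 with the trend on length taken off and -0.14 with Eif4ebp3 included.

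**Figure D3:**
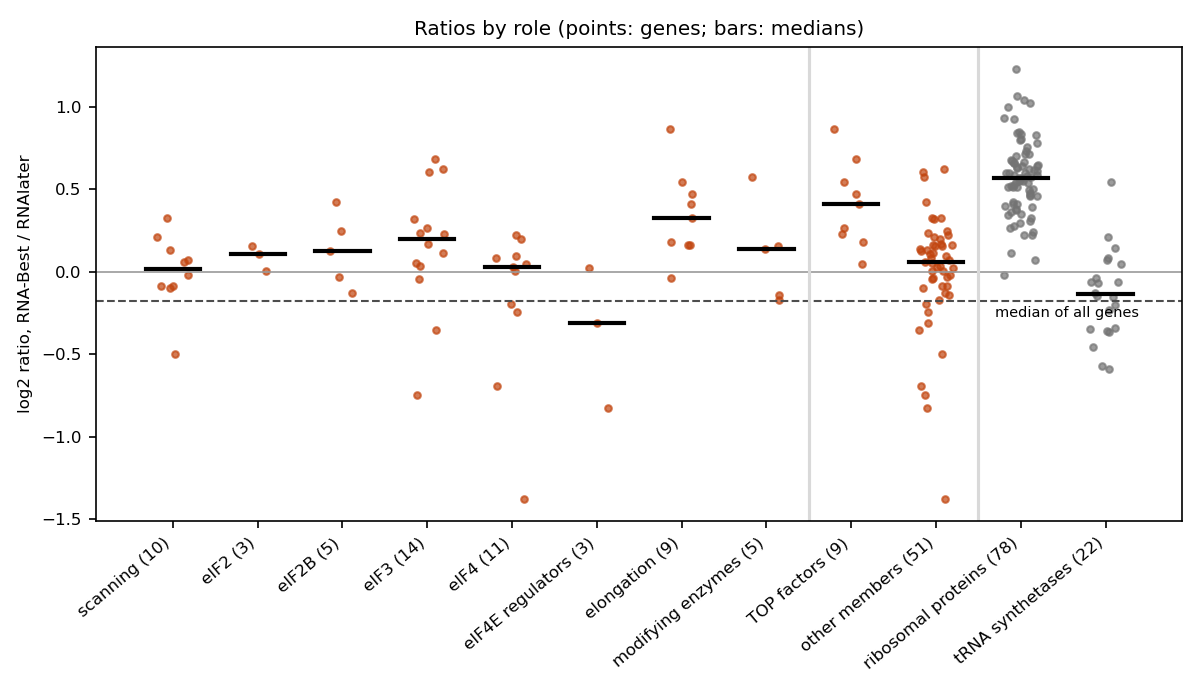
Log2 ratio of RNA-Best to RNAlater for each gene (points) and the median (bars) of the 8 role groups, of the TOP factors and the other members, and, in grey, of ribosomal proteins and tRNA synthetases, with the number of genes in parentheses. Points are spread sideways for legibility. The dashed line is the median of all genes (-0.18), and the ribosomal proteins (median 0.57), TOP factors (0.41) and elongation factors (0.33) sit highest above it. The TOP factors and the elongation factors share genes.

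Members on the list of TOP mRNAs had a higher median ratio than the rest. This list, like the role groups, was chosen with earlier results of these data known. The list held Eef1a1, Eef1b2, Eef1d, Eef1g, Eef2, Eif3e, Eif3f, Eif3h and Eif4b. It overlaps the elongation group in Eef1a1, Eef1b2, Eef1d, Eef1g and Eef2. That group had 8 of 9 genes higher and a median of 0.33, so the 2 sets are not separate. All 9 were higher in RNA-Best under every scaling, with a median log2 ratio of 0.41, beside 0.06 for the 51 other members, of which 32 were higher. Their summed level was 7500 CPM with RNA-Best against 5597 CPM with RNAlater, whereas the other members summed to 5378 and 5502 CPM. The values ran from 0.04 for Eif4b to 0.87 for Eef1b2. The cytosolic ribosomal proteins, whose mRNAs are the classic TOP mRNAs, had a median of 0.57, and 77 of 78 were higher (33% of all genes). Rps26 was the exception at 104 and 106 CPM, and it turned higher under the other scalings. Pabpc1, the poly(A)-binding protein, is also made from a known TOP mRNA but is no member, and it was lower, at 221 CPM with RNA-Best against 326 CPM with RNAlater (log2 ratio -0.56, interval -0.60 to -0.53).

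The start-site sequences show what such a tract looks like and how far the annotation can resolve it. RefSeq promoters (GRCm38.p6) were matched for 46 of the 62 genes and searched on the coding strand for a C at the annotated first base followed by at least 4 C or T. The 2 matched members with such a run are printed over 30 bases from 10 bases before the start, at chrX:94212632-94212661 on the minus strand and chr7:108934405-108934434 on the plus strand, with the pyrimidine run in capitals.
Eif2s3x: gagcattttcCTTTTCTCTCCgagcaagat
Eif3f: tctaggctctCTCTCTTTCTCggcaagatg
The same rule held for 813 of all 27025 genes with a RefSeq promoter (3.01%) and for 14 of 57 matched ribosomal protein genes (24.6%). A run at the annotated start is a description of these letters, and its absence says only that they are not at that base. Eif3f, which is on the TOP list, was at 162 CPM with RNA-Best against 138 CPM with RNAlater (log2 ratio 0.23, interval 0.18 to 0.28). Eif2s3x, which is not on the list, had a lower ratio of 0.16. With the trend on length taken off the order was the reverse, with Eif3f at 0.33 and Eif2s3x at 0.42.

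Longer members tended to be lower in RNA-Best. Across the 60 members the log2 ratio and the length of the longest annotated transcript had a Spearman correlation of -0.605 and a Pearson correlation of -0.641 with log10 length. Over 16443 genes with a length the Spearman correlation was -0.638, and over the 78 ribosomal protein genes, which are short, it was 0.0854. These are correlations across genes that share both libraries. The 16 members of up to 2 kb had a median log2 ratio of 0.32 and 15 of them were higher, beside a median of 0.15 and 66.2% higher for all genes of that length. The 4 members over 6 kb (Eef2k, Eif4g2, Eif4g3 and Eif5b) were all lower, with a median of -0.37, where all genes of that length had a median of -0.69 and 4.46% were higher. Eif4g2 is among them by its longest transcript, while its principal annotated transcript has 0.742 kb. With median instead of longest transcript lengths the correlation over members was -0.321.

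Most members lay above the genes of their own length. The number above the median of all genes in the class was 12 of 16 up to 2 kb, 16 of 19 from 2 to 3 kb, 9 of 11 from 3 to 4 kb, 7 of 10 from 4 to 6 kb and 3 of 4 above. A smooth trend of ratio on length was fitted over all genes, and 49 of 60 members lay above it, beside 51.1% of all genes, with a median of 0.26 from the trend. The distance was -0.67 for Eif4g3, which thus stood below other long genes, and -0.29 for Eif3a. Eif5b, which was lower by library total, lay 0.18 above the trend, and Eef1b2 lay 0.88 above it. All 9 TOP factors lay above the trend, with a median of 0.54. The GC content of the transcript had a Spearman correlation of 0.0797 with the ratio over members.

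**Figure D4:**
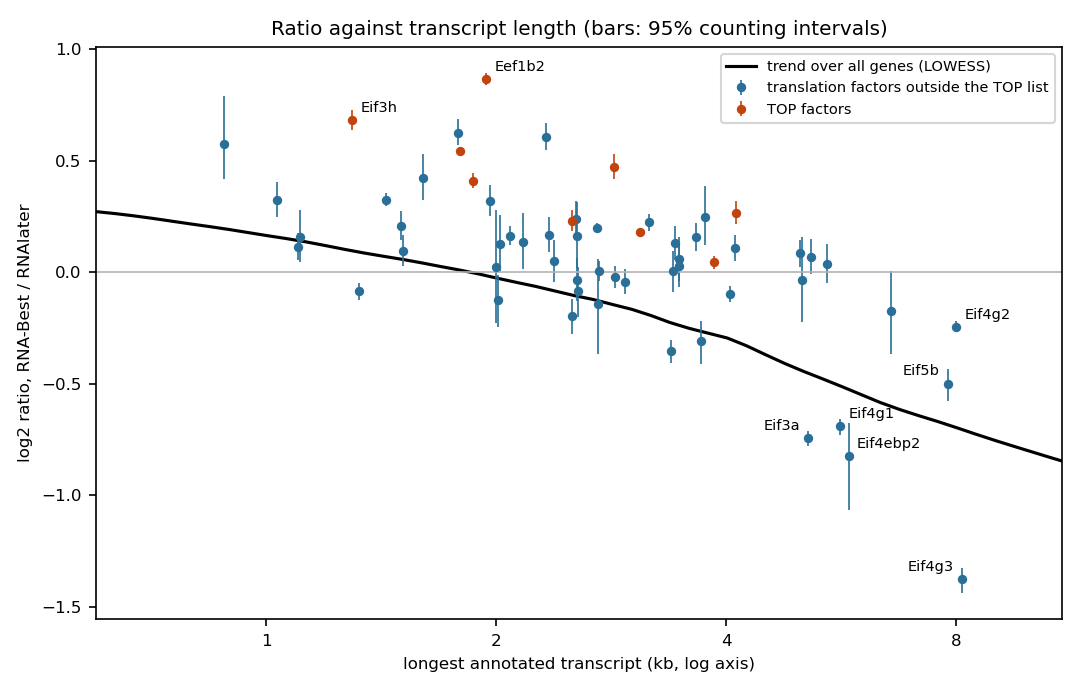
Log2 ratio of RNA-Best to RNAlater against the length of the longest annotated transcript (kb, log axis) for the 60 members, with 95% counting intervals, TOP factors in orange and the other members in blue. The black line is the trend over all genes, and 49 of 60 members lie above it, with Eif4g3 (-1.38), Eif3a, Eif4g1 and Eif4ebp2 below it among the long transcripts.

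Paralogs that serve the same step were compared as shares of their summed level per kb of the longest transcript. The shares used only the counts of the genes themselves, and their intervals do not cover reads divided with pseudogenes. In RNA-Best, pseudogenes held 39.2% of the counts pooled with Eif4a1, 38.4% of those with Eef1a1 and 18.9% of those with Eif1. Adding such counts would lower the shares of Eif4a2, Eef1a2 and Eif1b. Eef1a2, the eEF1A form of muscle and neurons, made up 4.97% of eEF1A mRNA with RNA-Best (interval 4.88% to 5.06%) and 6.37% with RNAlater (6.24% to 6.51%), or 2.42% and 3.12% with median transcript lengths. Eif4a2 was the larger part of the helicase pair, at 76.1% in RNA-Best and 76.4% in RNAlater, and these intervals overlapped. Eif1a, the autosomal gene, made up 81.6% and 82.5% of its pair with the X-linked Eif1ax, and Eif5a2 no more than 0.550% and 0.705% of eIF5A.
The pairs that differed most between the libraries were Eif4g3 with Eif4g1 and Eif1b with Eif1. Eif4g3 was 19.4% of its pair with RNA-Best (18.8% to 19.98%) and 28.0% with RNAlater (27.4% to 28.5%), and Eif1b was 26.6% (25.9% to 27.4%) and 21.4% (20.6% to 22.2%). With median transcript lengths the Eif4g3 share became 9.98% and 15.2% and that of Eif1b 16.1% and 12.6%, so the library order was kept while the level was not.

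**Figure D5:**
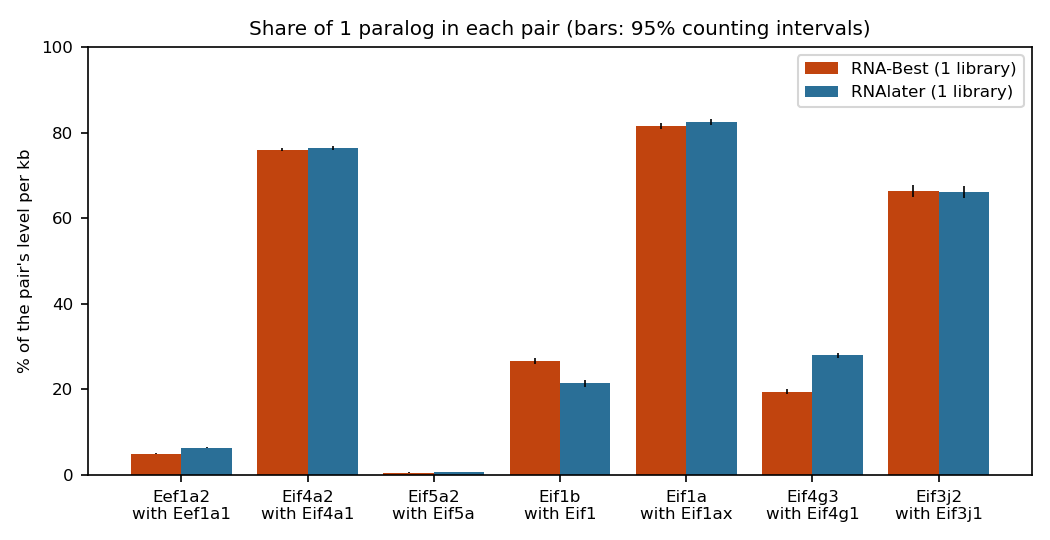
Share of the first-named paralog in the summed level per kb of each of 7 pairs, in percent, in RNA-Best and RNAlater, with 1 library for each reagent and 95% counting intervals. Counts of pseudogenes are left out, and the intervals do not cover reads divided between genes. Eif4a2 (76.1% and 76.4%) takes a nearly equal share in both libraries, and Eif4g3 (19.4% and 28.0%) differs most.

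Several members have pseudogenes that could take or lend reads. The deposited counts were divided between features for most members, and only 16 of the 60 showed none of this in either library. In all, 17 members shared 51-base stretches with 35 pseudogenes that had at least 10% of their own stretches in common with the member. For Eef1a1, 6 pseudogenes held 38.4% of the pooled RNA-Best counts, for Eef1g 3 pseudogenes held 49.0%, and for Eif4a1 a pair held 39.2%, most of it in Eif4a-ps4. The absolute levels of these genes are therefore uncertain. Adding the pseudogene counts to the member moved no log2 ratio by more than 0.029 and gave Eef1a1 at 0.56 and Eef1b2 at 0.86. This cannot show that the ratios are certain, because divided reads can give a member and its pseudogenes similar ratios. For Eef1a1 the pseudogenes alone had a log2 ratio of 0.57. Members without such pseudogenes, among them Eif3j2 (91.7% of stretches shared), Eif3j1 (36.8%) and Eif3h (19.9%), were not covered. Eif4g3, Eif3a and Eif5b shared no stretch with another gene.

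Genes of neighbouring steps and of the control of translation were counted in the same way, beside the 67% of all genes that were lower in RNA-Best. All 4 termination and recycling genes were lower, with a median log2 ratio of -0.25, from Gspt1 (the release factor eRF3a) at 51.9 CPM with RNA-Best against 64.0 CPM with RNAlater to Abce1 (the recycling ATPase) at 66.1 and 75.2 CPM. Of 8 genes that control eIF2, the 4 kinases among them, 7 were lower and the median was -0.42. Gcn1l1, the activator of the kinase GCN2, was the lowest of these at 27.3 and 59.4 CPM (log2 ratio -1.11), and Impact, which counters it, was at 144 and 143 CPM, with an interval that held 0. Of 8 mTORC1 and eIF4E control genes 7 were lower, with a median of -0.41. Larp1, the protein that binds TOP mRNAs, was the lowest at 57.3 and 110 CPM (log2 ratio -0.94), and Mlst8, a subunit of mTORC1, was the highest at 8.07 and 7.41 CPM. Of 11 poly(A) tail and helper genes 3 were higher and 8 lower, with a median of -0.12 and Paip2 highest at 0.23, but 6, 7 and 6 were higher with TMM, DESeq2 and totals without Prl and Gh, so that the direction of this list depended on the scaling. These lists hold long transcripts, with median lengths of 3.71 kb for termination, 4.42 kb for eIF2 control and 5.06 kb for mTORC1 and eIF4E control, beside 2.71 kb for the members. With the length trend taken off, their medians were -0.02, -0.10 and 0.01.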

How the data were processed

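Poly(A) RNA of dissociated pituitary cells was sequenced from 2 samples, grouped by the stabilizer in the labels. The authors deposited 1 table of estimated counts per Ensembl gene, not normalized. The submitters' processing notes name STAR 2.5.1b, featureCounts 1.5.0-p1 and mm10. Of the values above 0, 35.4% in RNA-Best and 34.9% in RNAlater were not whole, so reads had been divided between features. The option used and the strand setting are not given in the sources used here, so overlapping genes on opposite strands cannot be told apart. ERCC controls, which the study added, were not used here.

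Identifiers were matched to GENCODE M21 (98.9% of 47069). Counts were scaled to CPM by library total, and 0.5 CPM was added before log2 ratios were taken. Genes under a mean of 1 CPM were left out. A count of 0 would allow up to 3 counts, 0.0556 CPM for RNA-Best or 0.0668 CPM for RNAlater. Counts were rounded for exact Poisson, conditional binomial and Clopper-Pearson intervals at the 95% level and for the TMM factors of edgeR 4.0.16 and size factors of DESeq2 1.42.0 (R 4.3.3), used only as other scalings. With 1 library per group no p-value is given. The length trend was a LOWESS curve with a span of 0.2 (statsmodels 0.14.6, Python 3.11.15). Ratios, intervals and the trend were tested on simulated data.

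Named members were the 5 most abundant, the ends of each role group, the 5 highest and 5 lowest ratios from a mean of 10 CPM upward, paralog pairs and members below 1 CPM. For other lists the highest and lowest were named. Other members were named after their values were seen, to complete complexes. Members, roles and lists were chosen with earlier results of these data known.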

Additional observations from a re-analysis of the deposited data

How the results depend on the processing

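No paired analysis was possible because the labels number no replicates and each reagent had a single library. The median log2 ratio of the members was 0.27 with TMM scaling, 0.29 with DESeq2 size factors, 0.23 with totals without Prl and Gh and 0.26 with the length trend removed, and that of the TOP factors was 0.58, 0.59, 0.54 and 0.54. Relative to the median of all genes, members lay 0.29 above with each of the 3 scalings. Members at least 1.5-fold higher numbered 8, 9 and 7 under the 3 scalings (7.31%, 7.72% and 6.39% of all genes), and those at least 1.5-fold lower 2, 2 and 3 (11.51%, 11.09% and 13.57% of all genes) and 1 with the length trend removed. Without Prl and Gh in the total, members took 1.83% of RNA-Best and 1.44% of RNAlater counts. The length correlation was -0.321 with median transcript lengths, -0.558 with no filter and -0.579 at a mean of at least 10 CPM. The settings in the rest of this paragraph were chosen after seeing the data. With principal transcripts that correlation was -0.641 and without Eif4g3 it was -0.584. Without Eef1a1 the members took 0.940% and 0.872% of counts. Among the 16 kept members with whole counts 11 were higher, 0 were 1.5-fold higher (the gene Eef1akmt1 came closest), 1 was 1.5-fold lower, and the 1 TOP factor left, Eif3f, had a ratio of 0.23, since fewer genes were counted. Adding pseudogene counts, other pseudocounts and other filters moved no count past 1.5 times. Except where stated, the cause of these shifts was not tested. With 1 library each, counting depth does not limit these ratios for most members, and variation between samples was not measured.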

Other observations

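Translation factors of mitochondria and the enzymes that finish cytosolic factors were described by the same counts. Of 9 mitochondrial translation factors 6 were higher in RNA-Best (33% of all genes), with a median log2 ratio of 0.08. Mtif3, a mitochondrial initiation factor, was the highest at 11.9 CPM with RNA-Best against 9.17 CPM with RNAlater (log2 ratio 0.36, interval 0.20 to 0.56), and Gfm1, the mitochondrial counterpart of eEF2, the lowest at 18.9 and 23.0 CPM (log2 ratio -0.27, interval -0.41 to -0.15). Of 9 hypusine and diphthamide enzymes, which modify eIF5A and eEF2, 7 were higher, again beside 33% of all genes, with a median of 0.20. Dohh, which completes hypusine, was the highest at 33.1 and 24.3 CPM (log2 ratio 0.44, interval 0.33 to 0.55), and Dph1, which begins diphthamide, the lowest at 6.19 and 7.28 CPM (log2 ratio -0.22, interval -0.46 to -0.01).

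The cytosolic aminoacyl-tRNA synthetases and their scaffold proteins charge the tRNAs that eEF1A delivers. Of 22 genes 6 were higher and 16 lower in RNA-Best (33% and 67% of all genes), with a median log2 ratio of -0.14. The direction of this list followed the scaling, since 13 were higher with TMM, 13 with DESeq2 size factors and 10 with totals without Prl and Gh. Aimp1, a scaffold of the multi-synthetase complex, was the highest at 74.9 CPM with RNA-Best against 51.2 CPM with RNAlater (log2 ratio 0.54, interval 0.47 to 0.62). Iars, the isoleucyl-tRNA synthetase, was the lowest at 26.4 and 39.9 CPM (log2 ratio -0.59, interval -0.70 to -0.50).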
